A study of Homo sapiens with 30 samples.

Results

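The genes described here are 8 ligands of the tumour necrosis factor (TNF) superfamily, namely TNF, LTA, LTB, TNFSF9, TNFSF10, TNFSF13B, TNFSF14 and TNFSF15, and the 2 receptors of TNF, TNFRSF1A and TNFRSF1B. They were taken as every probe set that the array annotation pairs with 1 of these 10 symbols alone. That gave 11 of the 22277 probe sets, for 9 of the 10 genes. The annotation used here listed no probe set for TNFSF13B, a survival factor of B cells, which was not analysed here. Transcript levels were measured on 30 Affymetrix 3-prime expression arrays in THP-1 cells, an established human line of acute monocytic leukaemia. All cells, controls included, were first made adherent and macrophage-like with phorbol 12-myristate 13-acetate (PMA) over 24 h, scraped off, counted and replated. They were then kept with multi-walled carbon nanotubes (MWCNT, tube-shaped carbon fibres) at 10 or 100 µg/ml, with the same doses of titanium dioxide nanobelts (TiO2-NB, ribbon-shaped particles) or with no particles, each for 1 or 24 h. RNA came from the washed adherent cells, which are a single leukaemia line and not primary macrophages. Each of the 10 groups has 3 arrays, called biological replicates, and nothing says that they were separate cultures, so p-values measure the spread between these samples, which may be technical.

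TNF is an inflammatory cytokine that macrophages make as a membrane protein and release by cleavage. It acts through TNFRSF1A, which most cells carry and whose death domain can start either NF-kappaB signalling or cell death, and through TNFRSF1B, which has no death domain and is found mainly on immune cells. The lymphotoxins LTA and LTB are close relatives of TNF. LTA alone also binds both TNF receptors, and LTA joined with LTB binds LTBR. TNFSF9 and TNFSF14 (LIGHT) stimulate T cells through TNFRSF9 and TNFRSF14, TNFSF10 (TRAIL) starts apoptosis through its death receptors, and TNFSF15 binds TNFRSF25.

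Levels are log2 RMA intensities, and 1 unit is a doubling of intensity. They can be compared between arrays for 1 probe set, but not between probe sets. Errors of levels are SDs of 3 arrays, while those of log2 fold changes are standard errors, from 1 limma fit to all 30 arrays. A gene was called higher or lower at an adjusted p under 0.05 over 10050 genes. Array medians lay between 6.35 and 6.46, any pair of arrays correlated at 0.979 or above, and precision is limited by how many arrays there are. Of 11 measured markers of monocytes and macrophages, 9 lay above the array median on every array, and FCGR1A and MRC1 did so on none. None of 7 T cell, 4 B cell and 5 epithelial markers did so on every array, against 2 of 4 NK cell markers (NKG7 and GNLY) and 1 of 5 fibroblast markers (COL1A1). The measurements are of bulk RNA, so fewer cells of a kind and less RNA per cell cannot be told apart.

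Of the 9 measured genes, 8 passed the filter on low values and were tested. TNFSF15 (probe set 221085_at) lay between 3.83 and 4.39 and below the lower quartile of the array on 30 of 30 arrays, so no level of it was established and it was not tested. All other genes were above that quartile on 30 of 30 arrays, except TNFSF10, which was above it on 15 of 15 arrays at 1 h and on 11 of 15 at 24 h.

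**Figure D1:**
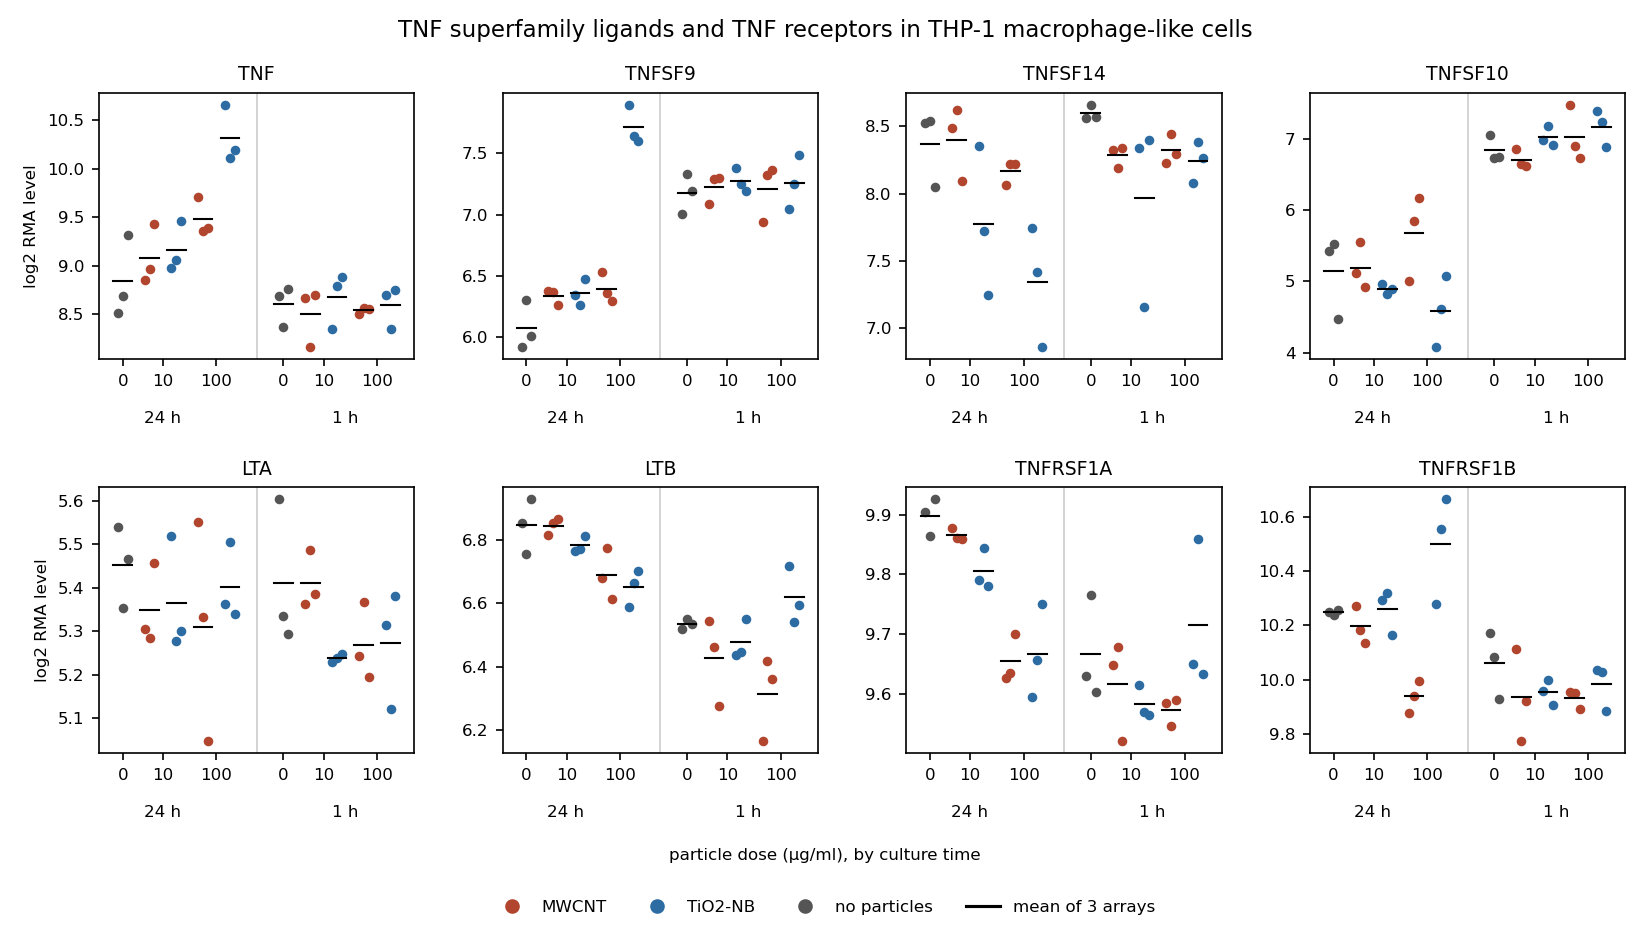
Log2 RMA level (vertical axes) of the 8 tested genes on each of 30 arrays, by particle dose in µg/ml and culture time; points are arrays, coloured by material, and bars are means of 3 arrays. TNF and TNFSF9 stand highest with 100 µg/ml TiO2-NB at 24 h, TNFSF14 stands lowest there, and TNFSF10 is low in every group at 24 h.

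After 24 h with 100 µg/ml TiO2-NB the cells carried more TNF, TNFSF9 and TNFRSF1B mRNA and less TNFSF14 and TNFRSF1A mRNA than control cells. With 100 µg/ml MWCNT they carried more TNF mRNA and less mRNA of both TNF receptors. That is 5 of the 8 tested genes with TiO2-NB (3 up, 2 down), in a comparison where 22.1% of all genes tested passed. With MWCNT it is 3 of the 8 (1 up, 2 down), where 13.0% of all genes passed. The median log2 fold change of the 8 genes was -0.12 with TiO2-NB, against 0.01 over all genes, and -0.15 with MWCNT, against -0.01. Both comparisons use the same control arrays. Particles at 10 µg/ml and all exposures of 1 h gave no call among the 8 genes.

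The RefSeq promoter windows (build GRCh38.p14, 250 bases before to 50 bases after the start site) of the 4 ligands whose levels moved most are printed here, because TNF and TNFSF9 rose together with TiO2-NB while TNFSF14 and TNFSF10 did not. Capitals mark letters that match 1 of 4 motifs, searched on both strands: the NF-kappaB consensus, AP-1 (TGANTCA), the interferon-stimulated response element (ISRE, GAAA and GAAA with 2 bases of any kind between) and the TATA box (TATAAA). They are in 11.3%, 7.71%, 3.57% and 11.5% of 35116 such windows.
TNF, chr6:31575315-31575614, plus strand: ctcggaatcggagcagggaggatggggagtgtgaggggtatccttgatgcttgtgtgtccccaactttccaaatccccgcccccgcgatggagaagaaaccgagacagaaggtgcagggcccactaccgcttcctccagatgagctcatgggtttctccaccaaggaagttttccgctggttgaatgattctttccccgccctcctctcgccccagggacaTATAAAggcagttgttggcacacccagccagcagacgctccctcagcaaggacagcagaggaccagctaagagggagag
TNFSF9, chr19:6530776-6531075, plus strand: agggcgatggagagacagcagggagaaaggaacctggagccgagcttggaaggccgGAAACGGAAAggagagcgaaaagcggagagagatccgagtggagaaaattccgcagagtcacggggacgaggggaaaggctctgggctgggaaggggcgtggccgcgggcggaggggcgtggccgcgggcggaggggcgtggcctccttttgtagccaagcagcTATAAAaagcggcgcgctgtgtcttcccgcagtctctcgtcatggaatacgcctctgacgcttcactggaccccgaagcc
TNFSF14, chr19:6670111-6670410, minus strand: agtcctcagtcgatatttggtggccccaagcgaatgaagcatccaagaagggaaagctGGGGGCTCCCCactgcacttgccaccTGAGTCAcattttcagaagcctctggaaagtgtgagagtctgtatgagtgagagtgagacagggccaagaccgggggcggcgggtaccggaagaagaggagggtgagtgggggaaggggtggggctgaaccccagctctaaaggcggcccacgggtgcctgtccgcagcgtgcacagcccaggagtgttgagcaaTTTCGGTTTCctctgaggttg
TNFSF10, chr3:172523381-172523680, minus strand: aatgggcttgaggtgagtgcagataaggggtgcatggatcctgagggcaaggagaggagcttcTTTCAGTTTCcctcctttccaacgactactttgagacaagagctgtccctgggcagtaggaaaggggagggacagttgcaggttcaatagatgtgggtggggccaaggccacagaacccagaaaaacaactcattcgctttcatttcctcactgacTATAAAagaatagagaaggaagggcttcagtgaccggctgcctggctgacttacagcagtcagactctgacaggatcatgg
The windows of TNF and TNFSF9 both hold a TATA box, whose first base lies at -29 and -30 from the start site, and that of TNFSF9 holds an ISRE match from -194. The window of TNFSF10 holds a TATA box from -31 and an ISRE match on the other strand from -187. That of TNFSF14, which has a second listed window shifted by 2 bases, holds no TATA box. It holds a pair of overlapping NF-kappaB matches from -192 and -191, an AP-1 match from -166 and an ISRE match on the other strand from 30 after the start site. The NF-kappaB letters were searched only within 300 bases and only as GGGRNNYYCC (R is A or G, Y is C or T, N is any base). No match to this pattern lay in the windows of TNF and TNFSF9. Sites that differ from it by a single letter were not counted. As an example, the TNF window holds gggtttctcc, which differs from the pattern only in its 4th letter. Near matches were not searched for in the other windows, so this example does not set TNF apart from them. Of the other members, the window of TNFRSF1A held none of the 4 motifs and that of TNFRSF1B an ISRE match on the other strand. For LTA, 1 of the 2 windows held overlapping NF-kappaB matches and a TATA box. Both windows of LTB held 2 NF-kappaB matches, 1 of them on the other strand. The window of TNFSF15 held an AP-1 match, and each of the 2 windows of TNFSF13B an ISRE match.

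TNF itself (probe set 207113_s_at) was read at 10.66, 10.11 and 10.19 with 100 µg/ml TiO2-NB for 24 h and at 9.71, 9.36 and 9.39 with 100 µg/ml MWCNT, against 8.51, 8.69 and 9.31 in 24 h controls. All TiO2-NB arrays lay above all MWCNT arrays, and all MWCNT arrays lay above the controls, of which replicate 3 stood closest to them. The log2 fold change over control was 1.48 ± 0.21 with TiO2-NB (2.79-fold, adjusted p = 9.83e-06) and 0.65 ± 0.21 with MWCNT (1.57-fold, adjusted p = 0.0367). The TiO2-NB call held under every alternative tried (adjusted p between 2.32e-06 and 0.00489). The MWCNT call was lost under 7 of 16, with adjusted p between 0.00503 and 0.226, highest without replicate 1 of the 24 h control.

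At 10 µg/ml for 24 h TNF was at 8.98, 9.06 and 9.46 with TiO2-NB and at 8.85, 8.96 and 9.43 with MWCNT, which overlap the controls (log2 fold changes of 0.33 and 0.24 ± 0.21, adjusted p = 0.999 and 1). In these arrays TNF was lower than at 100 µg/ml TiO2-NB, by a tested difference of 1.16 ± 0.21 between the doses (adjusted p = 4.05e-04). Between the MWCNT doses the difference was 0.40 ± 0.21 (adjusted p = 0.339). At 1 h the 15 arrays lay between 8.16 and 8.89 and no exposed group parted from the 1 h controls, which read 8.69, 8.36 and 8.76. The response to 100 µg/ml TiO2-NB differed between the times by 1.49 ± 0.29 (adjusted p = 0.00128).

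TNFSF9 (206907_at), the ligand that stimulates activated T cells through TNFRSF9, was read at 7.89, 7.64 and 7.60 with 100 µg/ml TiO2-NB for 24 h and at 6.53, 6.36 and 6.29 with 100 µg/ml MWCNT, against 5.92, 6.30 and 6.01 in 24 h controls. The TiO2-NB arrays stood above all other 27 arrays, while the MWCNT arrays overlapped the control range. The log2 fold change was 1.64 ± 0.12 with TiO2-NB (3.11-fold, adjusted p = 1.18e-09), the largest of any tested member in an exposure comparison, and 0.32 ± 0.12 with MWCNT (adjusted p = 0.0947, not called). The MWCNT value was called under 1 of 16 alternatives, without replicate 2 of the 24 h control (adjusted p = 0.034). The 10 µg/ml doses gave 0.28 ± 0.12 with TiO2-NB and 0.26 ± 0.12 with MWCNT, and neither was called.

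The level of TNFSF9 also depended on the time in culture. In controls it averaged 6.07 ± 0.20 at 24 h, against 7.17 ± 0.16 at 1 h, a log2 fold change of -1.10 ± 0.12 (adjusted p = 1.51e-07), and the arrays did not overlap. The 12 other arrays at 1 h lay between 6.94 and 7.49, within or near the control range. With 100 µg/ml TiO2-NB at 24 h the mean was 7.71 ± 0.16, and of the 5 groups at 24 h it alone lay above the 1 h groups. Its response differed between the times by 1.55 ± 0.18 (adjusted p = 3.01e-06).

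Between TNFSF9 and TNFSF14 on chromosome 19 lies CD70, another ligand that stimulates T cells, which was picked for this position after its values were seen. CD70 (206508_at) read 8.88, 8.95 and 8.92 with 100 µg/ml TiO2-NB for 24 h and 8.01, 8.32 and 8.31 with 100 µg/ml MWCNT, against 7.71, 7.39 and 7.51 in 24 h controls. It was called higher with both, by 1.38 ± 0.13 (adjusted p = 2.63e-08) and 0.68 ± 0.13 (adjusted p = 6.38e-04), and lower in the 24 h than in the 1 h control (adjusted p = 9.52e-07). Over the 10 group means, which share the arrays of each group, CD70 correlated with TNFSF9 at r = 0.95 and with TNFSF14 at r = -0.32. TNFRSF9 (207536_s_at), the receptor of TNFSF9, was called higher with MWCNT on 1 of its 2 probe sets (1.14 ± 0.28, adjusted p = 0.00745, and 0.63 on the other) and read 7.29, 7.30 and 7.30, against 6.17, 6.16 and 6.14 in controls. With TiO2-NB it read 6.71, 6.79 and 6.71, all above the same controls, with 0.58 ± 0.28 (adjusted p = 0.159, not called).

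TNFSF14 (207907_at), which binds TNFRSF14 and LTBR, went the other way with TiO2-NB. It was read at 7.75, 7.42 and 6.86 with 100 µg/ml for 24 h, against 8.52, 8.54 and 8.05 in 24 h controls, and the arrays did not overlap. The log2 fold change was -1.03 ± 0.26 (adjusted p = 0.00575), which leaves 0.49 of the control intensity. It rested in part on replicate 3 of the TiO2-NB group, the lowest of the 30 arrays, without which it was -0.79 (adjusted p = 0.0518). With 100 µg/ml MWCNT the arrays read 8.07, 8.22 and 8.22, inside the control range (-0.20 ± 0.26, adjusted p = 0.692).

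With 10 µg/ml TiO2-NB, single arrays of TNFSF14 were low. The 24 h arrays read 8.36, 7.72 and 7.25 (-0.60 ± 0.26 against control, unadjusted p = 0.0331, adjusted p = 0.999) and the 1 h arrays 8.34, 7.15 and 8.40 (-0.63 ± 0.26, unadjusted p = 0.0246, adjusted p = 1). These groups had the widest spread of the gene, with SDs of 0.56 and 0.70. At 1 h all 12 exposed arrays lay below the 3 controls (8.56, 8.66 and 8.57), and none of the 4 comparisons was called. TNFRSF14 (209354_at), a receptor of TNFSF14, was called higher with 100 µg/ml TiO2-NB for 24 h (0.55 ± 0.11, adjusted p = 5.96e-04). With 100 µg/ml MWCNT for 24 h it was called higher too (0.38 ± 0.11, adjusted p = 0.0192, lost under 6 of 16 alternatives, adjusted p up to 0.147). LTBR, the other receptor of TNFSF14 named above, was called with neither of these exposures. It stood at 0.04 ± 0.09 with TiO2-NB (adjusted p = 0.816) and at -0.01 ± 0.09 with MWCNT (adjusted p = 0.96).

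TNFSF10 (TRAIL), an apoptosis-inducing ligand, was the member that differed most between the times. In controls its best detected probe set (202688_at) read 5.43, 5.53 and 4.47 at 24 h, against 7.05, 6.73 and 6.75 at 1 h. The log2 fold change was -1.70 ± 0.28 (adjusted p = 2.71e-05), and the arrays did not overlap. The reading of 4.47 lies below the lower quartile of the arrays (4.77 to 4.91), so background limits the size of this fold change. The other probe sets lay above the lower quartile of the array on 15 of 15 (202687_s_at) and 6 of 15 arrays (214329_x_at) at 1 h and on 0 of 15 at 24 h. Their 24 h levels are at background, so no fold change of theirs is given, and the suffix of the last one marks probes that can also match other transcripts.

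With particles TNFSF10 moved apart between the materials. With 100 µg/ml for 24 h it read 5.00, 5.85 and 6.17 with MWCNT, against 4.08, 4.62 and 5.07 with TiO2-NB, and the arrays overlap. The readings of 4.08 and 4.62 lie below the lower quartile of the arrays (4.77 to 4.91), so background limits the size of this difference. MWCNT over TiO2-NB gave 1.09 ± 0.28 (adjusted p = 0.00607), while neither was called against control (0.53 ± 0.28 with MWCNT, adjusted p = 0.234, and -0.55 ± 0.28 with TiO2-NB, adjusted p = 0.167). The call was lost without replicate 3 of the MWCNT group (adjusted p = 0.0506) and when only the arrays compared were fitted (adjusted p = 0.0669). Among the receptors of TRAIL, the death receptor TNFRSF10B was called higher with MWCNT (0.34 ± 0.08, adjusted p = 0.00295, on 1 of 3 probe sets). With TiO2-NB it stood at 0.17 ± 0.08 (adjusted p = 0.115), and MWCNT over TiO2-NB was 0.17 ± 0.08 (adjusted p = 0.0986). The decoy receptor TNFRSF10C was called lower with TiO2-NB (-0.42 ± 0.12, adjusted p = 0.0149). The TNFRSF10C call was lost under 2 of 15 alternatives (adjusted p up to 0.125, without replicate 3 of the 24 h control), and its TiO2-NB mean of 4.79 lies by the lower quartile of the arrays (4.77 to 4.91). MWCNT gave -0.35 ± 0.12 (adjusted p = 0.0675), and MWCNT over TiO2-NB was 0.08 ± 0.12 (adjusted p = 0.682).

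**Figure D2:**
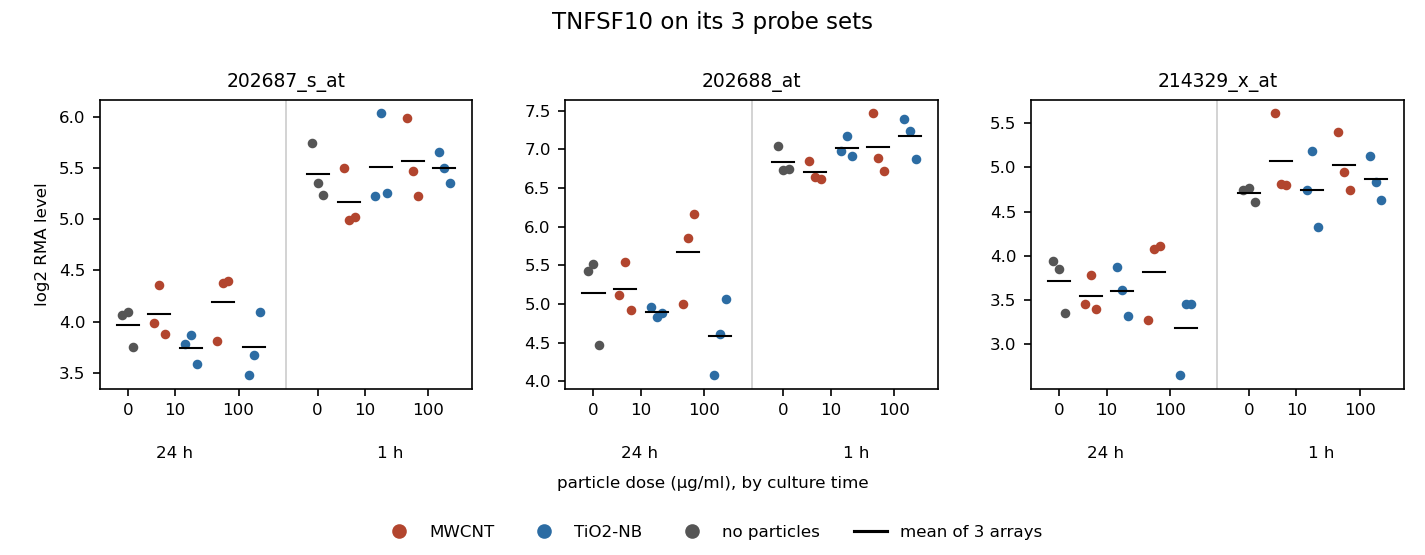
Log2 RMA level of TNFSF10 on its 3 probe sets, by particle dose in µg/ml and culture time; points are arrays and bars are means of 3 arrays. On each probe set the 24 h groups lie below the 1 h groups, and at 24 h most points of 202688_at lie between 4 and 6.

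LTA and LTB flank TNF on chromosome 6, and neither was called against control. LTA (206975_at) lay between 5.05 and 5.60 on all arrays, below the array median on 30 of 30. Its largest log2 fold change over control at 100 µg/ml was -0.14 ± 0.10. LTB (207339_s_at) read 6.59, 6.67 and 6.70 with 100 µg/ml TiO2-NB for 24 h and 6.68, 6.78 and 6.61 with 100 µg/ml MWCNT, against 6.85, 6.76 and 6.93 in 24 h controls. The TiO2-NB arrays lay below the controls (-0.19 ± 0.07, adjusted p = 0.0552, called under 4 of the alternatives) and the MWCNT arrays overlapped them (-0.16 ± 0.07, adjusted p = 0.17). At 1 h LTB read 6.16, 6.42 and 6.36 with 100 µg/ml MWCNT, against 6.72, 6.54 and 6.60 with TiO2-NB, a difference of -0.30 ± 0.07 (adjusted p = 0.0356). This call was lost under 10 of 16 alternatives, with adjusted p up to 0.299.

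TNFRSF1A (207643_s_at), the receptor with the death domain, was called lower with both materials at 100 µg/ml for 24 h, by a small and similar amount. It read 9.59, 9.66 and 9.75 with TiO2-NB and 9.63, 9.64 and 9.70 with MWCNT, against 9.90, 9.86 and 9.93 in 24 h controls, without overlap. The log2 fold changes were -0.23 ± 0.06 (adjusted p = 0.00716) and -0.24 ± 0.06 (adjusted p = 0.00758), which were lost only when the arrays compared were fitted alone (adjusted p = 0.0962 and 0.0585). MWCNT over TiO2-NB was -0.01, with a 95% interval from -0.14 to 0.11. The arrays at 10 µg/ml read 9.79, 9.84 and 9.78 with TiO2-NB and 9.88, 9.86 and 9.86 with MWCNT, and was not called. The control cells themselves had more at 24 h than at 1 h (0.23 ± 0.06, adjusted p = 0.00371), so the 100 µg/ml groups at 24 h stood near the 1 h controls (9.63, 9.77 and 9.60).

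TNFRSF1B (203508_at), the receptor without a death domain, moved in opposite directions with the materials. It read 9.88, 9.94 and 10.00 with 100 µg/ml MWCNT for 24 h and 10.28, 10.56 and 10.67 with 100 µg/ml TiO2-NB, against 10.25, 10.24 and 10.26 in 24 h controls. The MWCNT arrays lay below the controls and the TiO2-NB arrays above them, with replicate 1 of TiO2-NB next to the controls. MWCNT over TiO2-NB was -0.56 ± 0.09 (adjusted p = 5.53e-05) and held under every alternative (adjusted p up to 0.0149). Against control, MWCNT gave -0.31 ± 0.09 (adjusted p = 0.0168, lost under 2 of 16 alternatives, adjusted p up to 0.0718) and TiO2-NB gave 0.25 ± 0.09 (adjusted p = 0.0369, lost under 6 of 16, adjusted p up to 0.214). Both groups at 10 µg/ml overlapped the controls.

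**Figure D3:**
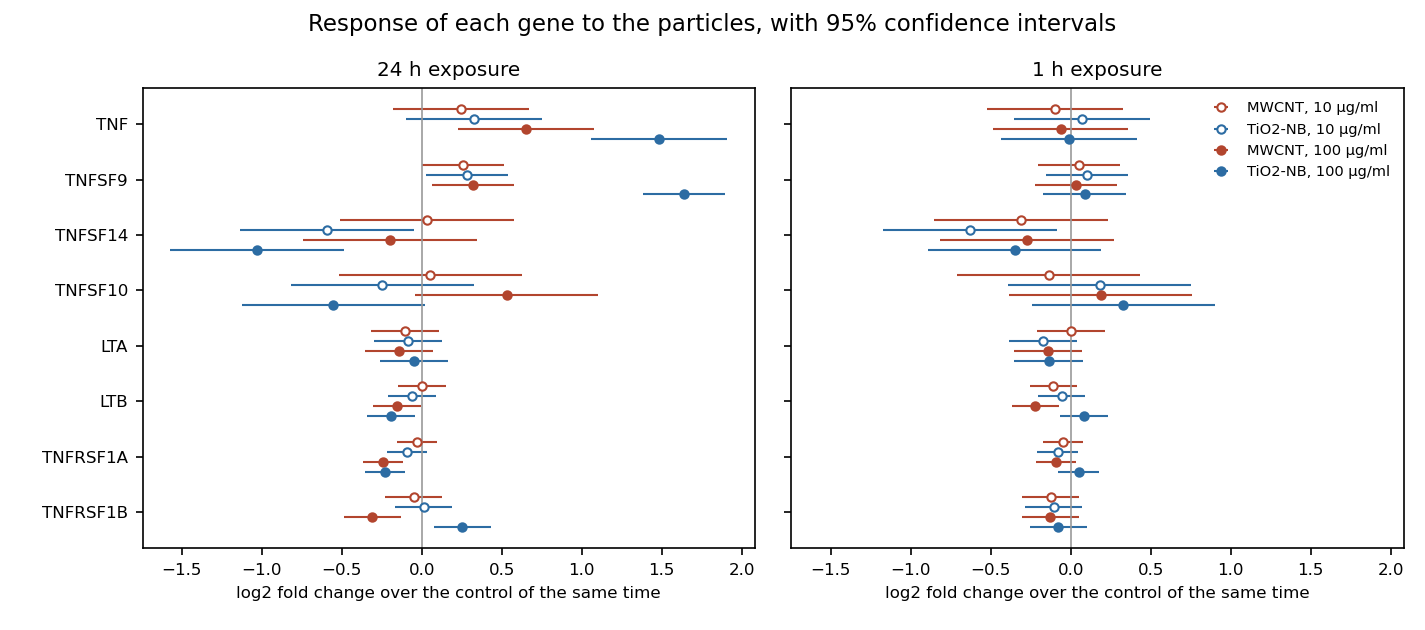
Log2 fold change over the control of the same time (horizontal axis) for the 8 tested genes at 24 h and 1 h; points are estimates of the limma fit, filled at 100 µg/ml and open at 10 µg/ml, and bars are 95% confidence intervals. At 24 h TNFSF9 and TNF with 100 µg/ml TiO2-NB stand at 1.64 and 1.48, and at 1 h no member was called.

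The series sets the materials side by side, so MWCNT was compared with TiO2-NB at each dose and time, over 10050 genes in each of 4 comparisons. At 100 µg/ml for 24 h 5 of the 8 genes were called, with 24.9% of all genes called. TNFSF9 (-1.32 ± 0.12, adjusted p = 8.03e-08), TNF (-0.83 ± 0.21, adjusted p = 0.00482) and TNFRSF1B were lower with MWCNT. TNFSF10 and TNFSF14 were higher with MWCNT, TNFSF14 by 0.83 ± 0.26 (adjusted p = 0.0235, lost under 3 of 16 alternatives, adjusted p up to 0.142). LTA, LTB and TNFRSF1A were not called, with differences of -0.09 ± 0.10, 0.04 ± 0.07 and -0.01 ± 0.06. At 100 µg/ml for 1 h LTB alone was called, with 1.42% of all genes. At 10 µg/ml no member was called, with 0.00995% of all genes called at 24 h and 0% at 1 h.

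**Figure D4:**
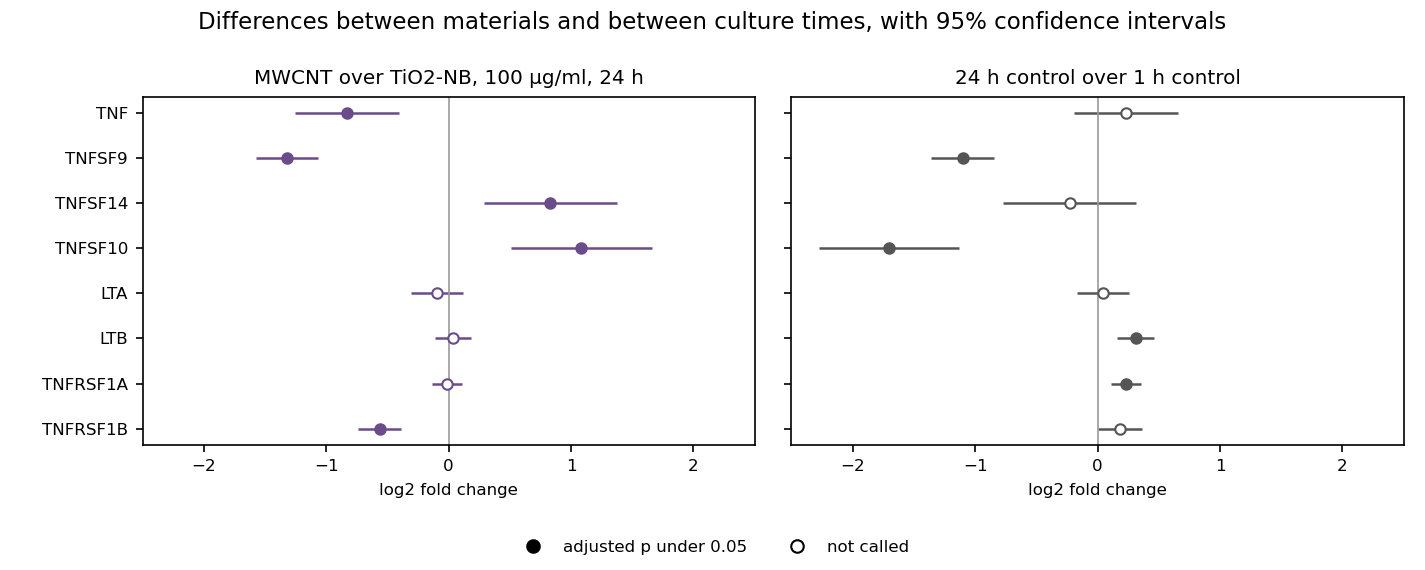
Log2 fold change (horizontal axes) of the 8 tested genes for MWCNT over TiO2-NB at 100 µg/ml and 24 h and for the 24 h control over the 1 h control; bars are 95% confidence intervals, and filled points have an adjusted p under 0.05. TNFSF10 is at 1.09 between materials and at -1.70 between control times.

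Between the doses at 24 h, TNF and TNFSF9 were called higher with 100 than with 10 µg/ml TiO2-NB, by 1.16 ± 0.21 and 1.35 ± 0.12 (adjusted p = 4.05e-04 and 6.27e-08), and 13.5% of all genes were called. With MWCNT only TNFRSF1A was called between the doses (-0.21 ± 0.06, adjusted p = 0.0437, with 4.67% of all genes), a call lost under 10 of 16 alternatives (adjusted p up to 0.15). Against control, limma called none of the 8 genes at 10 µg/ml for 24 h, with 0% of all genes called for MWCNT and 0.0199% for TiO2-NB. At an unadjusted p under 0.05 these counts were 1 (TNFSF9) with MWCNT, where 421 of all 10050 genes passed, and 2 (TNFSF9 and TNFSF14) with TiO2-NB, where 474 did. Without any change 502.5 genes would pass.

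At 1 h none of the 8 genes was called against control, at either dose of either material. All genes were called at 0% with both doses of MWCNT and with 10 µg/ml TiO2-NB, and at 1.15% with 100 µg/ml TiO2-NB. At an unadjusted p under 0.05 there was LTB with 100 µg/ml MWCNT (-0.22 ± 0.07, beside 293 of all genes) and TNFSF14 with 10 µg/ml TiO2-NB (beside 213). No member passed with 10 µg/ml MWCNT or 100 µg/ml TiO2-NB, where 162 and 1582 of all genes did. The doses at 1 h gave no call either, with 0% of all genes for MWCNT and 0.0796% for TiO2-NB. At an unadjusted p under 0.05 these held 0 members of 292 genes for MWCNT and 1 member (TNFRSF1A) of 1024 genes for TiO2-NB.

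The 24 h response was then set against the 1 h response, each over its own control. For 100 µg/ml TiO2-NB, the log2 fold changes of TNF and TNFSF9 were higher at 24 h than at 1 h, and that of TNFRSF1A was lower (-0.23 at 24 h and 0.05 at 1 h, a difference of -0.28 ± 0.09, adjusted p = 0.0279, lost under 8 of 21 alternatives, adjusted p up to 0.138), and 16.3% of all genes were called. For 100 µg/ml MWCNT no member was called (3.71% of all genes), and TNF, the 1 member among 1537 genes at an unadjusted p under 0.05, stood at 0.71 ± 0.29 (adjusted p = 0.212). At 10 µg/ml no member was called or reached an unadjusted p under 0.05, which 408 genes did with MWCNT and 256 with TiO2-NB, and 0% of all genes were called with either material.

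Without particles 4 of the 8 genes differed between 24 h and 1 h in culture, where 36.9% of all genes were called. TNFSF10 and TNFSF9 were lower at 24 h, as given above. LTB was higher (6.85 ± 0.09 at 24 h, against 6.54 ± 0.02 at 1 h, a log2 fold change of 0.31 ± 0.07, adjusted p = 0.00126), as was TNFRSF1A. TNF stood at 0.23 ± 0.21 (adjusted p = 0.416) and TNFRSF1B at 0.19 ± 0.09 (adjusted p = 0.0981). In the same comparison 7 of 10 tested monocyte and macrophage markers were higher and 1 lower, with a median of 0.89. The scavenger receptors CD163 (2.17) and MSR1 (2.61) stood highest, and the antibacterial enzyme LYZ was the lower one (-1.67, adjusted p = 0.00458). PAX5, a B cell marker, and NKG7, an NK cell marker, were lower too (-1.64 and -0.87), and KRT18, an epithelial marker, was higher (0.29). With 100 µg/ml TiO2-NB for 24 h 4 of these 10 markers were lower (CSF1R, CD163, TYROBP and MSR1, median -0.30), and with MWCNT 0 of 10 were called. The part of these marker shifts in the results for the ligands and receptors was not tested.

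The order of the group means differs by gene. For TNF it runs from 100 µg/ml TiO2-NB at 24 h (10.32 ± 0.29) through 100 µg/ml MWCNT at 24 h (9.49 ± 0.20) to 10 µg/ml MWCNT at 1 h (8.51 ± 0.30). Only the first 2 neighbours in that order have arrays that do not overlap. For TNFSF9 the order parts in 2 places, below 100 µg/ml TiO2-NB at 24 h (7.71) and between the 1 h control (7.17) and 100 µg/ml MWCNT at 24 h (6.39 ± 0.13). For TNFSF10 it parts once, between 10 µg/ml MWCNT at 1 h (6.70 ± 0.13) and 100 µg/ml MWCNT at 24 h (5.67 ± 0.60). For LTB and TNFRSF1A it parts once, between 10 µg/ml MWCNT and 10 µg/ml TiO2-NB at 24 h, and for TNFSF14, LTA and TNFRSF1B all neighbours overlap. Over the 10 group means TNF correlated with TNFRSF1B at r = 0.74, with TNFSF10 at -0.78, with TNFSF14 at -0.77 and with TNFSF9 at 0.05, and LTB with TNFRSF1A at 0.91.

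For 5 members, the genes with the most similar group means were found by Pearson correlation over the 10 groups, as a description with no test. For TNF they were CXCL1, a chemokine that attracts neutrophils (r = 0.99), TEX10, USP12 and GTF2F2. For TNFSF9 they were PLA2G4C (0.99), KLHL21, ATP6V1C1 and RALA. For TNFSF10 they were SAMHD1, an enzyme that degrades deoxynucleotides (0.99), LIPG, HSD11B1 and AQP3. For LTB they were FLII (0.98), MYG1, ZNF787 and VKORC1, and for TNFRSF1B PRKD2 (0.97), LAPTM5, KCNAB2 and NIT1.

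Other genes of the family and its signalling were counted from 5 lists at 100 µg/ml for 24 h, where 22.1% of all genes were called with TiO2-NB and 13.0% with MWCNT. Of 7 other ligands, CD70 alone was called higher, with both materials. Of 16 other receptors 2 were higher and 2 lower with TiO2-NB, a share near that of all genes, and 4 were higher with MWCNT (2 without replicate 1 of the 24 h control). CD40, which takes signals from T cells, was higher by 0.90 ± 0.15 with TiO2-NB (adjusted p = 6.12e-05) and by 0.44 ± 0.15 with MWCNT (adjusted p = 0.0434, lost under 7 of 16 alternatives, adjusted p up to 0.128). TNFRSF21, a death receptor, was lower with TiO2-NB (-0.63 ± 0.20, adjusted p = 0.0273, lost under 4 of 16 alternatives, adjusted p up to 0.0964). For TNFRSF21 MWCNT gave -0.43 ± 0.20 (adjusted p = 0.185), and MWCNT over TiO2-NB was 0.20 ± 0.20 (adjusted p = 0.487). The median of the receptors was 0.06 with TiO2-NB and -0.04 with MWCNT, near that of all genes.

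Of 28 adaptors, ligases and kinases of TNF receptor signalling, 10 were higher and 1 lower with TiO2-NB, and 11 were higher with MWCNT (7 when only the arrays compared were fitted), with medians of 0.02 and 0.14. Over all genes the shares called in either direction were 22.1% and 13.0%. TRAF1, a receptor adaptor that NF-kappaB induces, was higher by 1.54 ± 0.17 with TiO2-NB (adjusted p = 4.31e-07) and by 1.12 ± 0.17 with MWCNT (adjusted p = 7.17e-05). TNFAIP3 (A20), which shuts down TNF receptor signalling, was higher by 1.38 ± 0.12 (adjusted p = 1.85e-08) and 0.87 ± 0.12 (adjusted p = 3.77e-05), and lower with MWCNT than with TiO2-NB (-0.51 ± 0.12, adjusted p = 0.00449). CFLAR, an inhibitor of caspase-8, was higher by 1.08 ± 0.13 with TiO2-NB (called on 3 of its 9 probe sets) and by 0.72 ± 0.13 with MWCNT (adjusted p = 3.32e-04). CYLD, a deubiquitinase, was higher by 0.98 ± 0.11 with TiO2-NB, where 1 of its 5 probe sets was called lower (-0.58), and by 0.38 ± 0.11 with MWCNT (adjusted p = 0.0265). The kinase RIPK2 was higher by 0.86 ± 0.07 with TiO2-NB and by 0.82 ± 0.07 with MWCNT (MWCNT over TiO2-NB -0.04 ± 0.07, adjusted p = 0.741). TNIP1, a partner of A20, was higher by 0.73 ± 0.08 with TiO2-NB and by 0.72 ± 0.08 with MWCNT (MWCNT over TiO2-NB -0.01 ± 0.08, adjusted p = 0.949).

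Of 8 NF-kappaB subunits and inhibitors 6 were higher with TiO2-NB and 4 with MWCNT, with medians of 0.60 and 0.27, and none was lower. The MWCNT count was 2 when only the arrays compared were fitted, and the shares of all genes called were 22.1% and 13.0%. With TiO2-NB they were led by REL (0.73 ± 0.13, adjusted p = 1.98e-04), NFKBIA, the inhibitor that holds NF-kappaB in the cytoplasm (0.71 ± 0.16, adjusted p = 0.00207), RELB (0.63 ± 0.08) and RELA (0.63 ± 0.08). With MWCNT they were NFKBIA (0.61 ± 0.16, adjusted p = 0.0116), REL (0.53 ± 0.13), NFKB1 (0.44 ± 0.12) and RELB (0.33 ± 0.08), of which NFKB1 lost its call under 5 of 16 alternatives (adjusted p up to 0.13), NFKBIA under 2 and REL and RELB under 1 each. Of 16 genes of TNF shedding, release and mRNA control, 2 were higher and 2 lower with TiO2-NB and 1 higher and 2 lower with MWCNT, near the shares over all genes, and single counts ranged between 1 and 4 over the alternatives. LITAF, a lysosomal membrane protein described as a factor of TNF transcription, was higher by 1.17 ± 0.08 with TiO2-NB (adjusted p = 1.93e-10) and by 0.39 ± 0.08 with MWCNT (adjusted p = 0.00138). With TiO2-NB, RC3H2 was lower (-0.73 ± 0.21, adjusted p = 0.0114) and MAPKAPK2 higher (0.18 ± 0.05, adjusted p = 0.0142). These calls were made on 1 of 2 and 1 of 3 probe sets and lost under 2 and 4 of 16 alternatives. With MWCNT neither was called (0.01 ± 0.21 and -0.13 ± 0.05, adjusted p = 0.987 and 0.112). RHBDF1, which aids the maturation of the TNF sheddase, was lower with MWCNT (-0.59 ± 0.08, adjusted p = 1.74e-05). With TiO2-NB it stood at -0.21 ± 0.08 (adjusted p = 0.0554, not called), and MWCNT over TiO2-NB was -0.38 ± 0.08 (adjusted p = 0.00109). The sheddase ADAM17 (0.07 ± 0.05, adjusted p = 0.431) and the related RHBDF2 (0.06 ± 0.07, adjusted p = 0.648) were not called with MWCNT. ZFP36L1, which speeds the decay of AU-rich mRNAs, was lower with both (-0.33 ± 0.09 each, adjusted p = 0.0129 with TiO2-NB and 0.0185 with MWCNT). That call was made on 2 and 1 of its 3 probe sets and lost under 3 and 6 of 16 alternatives. The related ZFP36 was not called with TiO2-NB (0.21 ± 0.09, adjusted p = 0.0805) or MWCNT (-0.10 ± 0.09, adjusted p = 0.493).

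**Figure D5:**
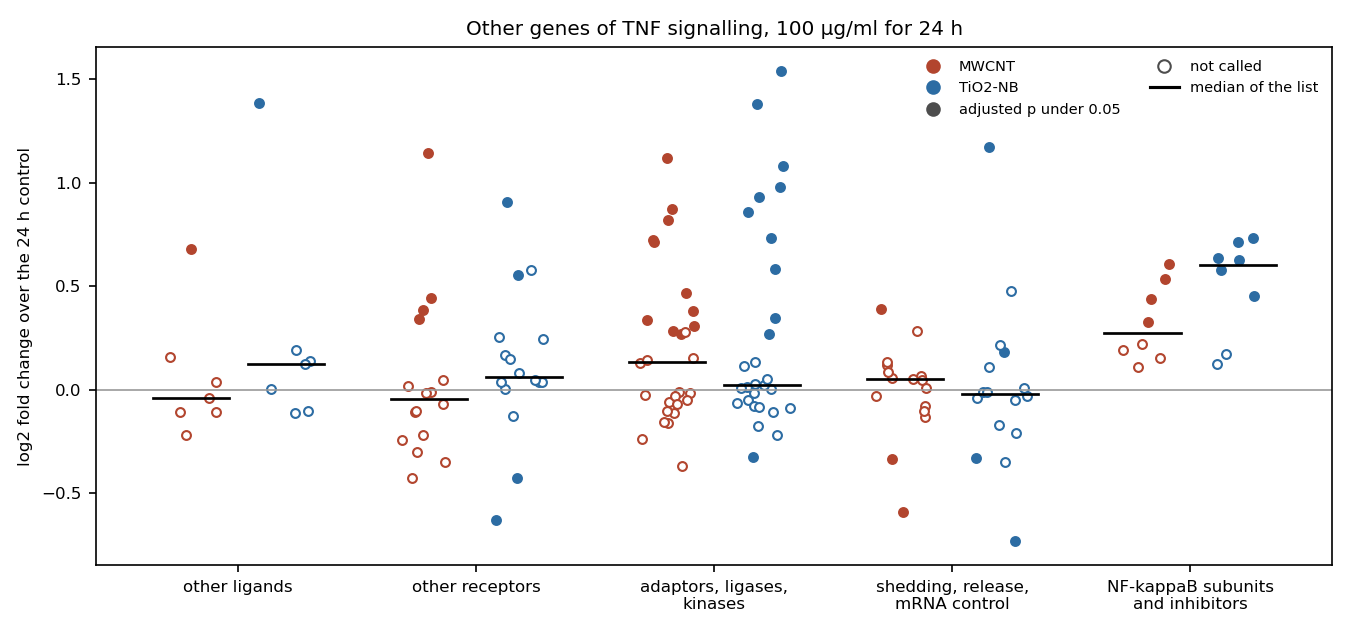
Log2 fold change over the 24 h control (vertical axis) of every tested gene of 5 lists at 100 µg/ml, for MWCNT and TiO2-NB; filled points have an adjusted p under 0.05 and bars are medians of a list. The NF-kappaB list lies mostly above 0, with medians of 0.60 for TiO2-NB and 0.27 for MWCNT.

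At 10 µg/ml for 24 h and in all 1 h exposures none of the genes of these lists was called, except EDA2R, a receptor of ectodysplasin, which was lower with 100 µg/ml TiO2-NB at 1 h (-0.61 ± 0.11, adjusted p = 0.0132, lost under 3 of 15 alternatives, adjusted p up to 0.144). Between the 24 h and the 1 h control, where 36.9% of all genes were called, CD70 was joined by TNFSF4 (lost under 4 of 14 alternatives) among 2 lower ligands of 7. Of the 16 genes of TNF shedding, release and mRNA control, 5 were higher and 6 lower, LITAF by a log2 fold change of -1.15 ± 0.08 (adjusted p = 3.28e-11). Of 28 adaptors, ligases and kinases 6 were higher and 7 lower, and of 16 other receptors 3 were higher and 1 lower. REL was lower (-0.63 ± 0.13) and NFKBIE higher (0.57 ± 0.11) in that comparison, the 2 NF-kappaB genes called of 8.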

How the data were processed

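The authors' deposited values are log2 intensities of probe sets, made with RMA (no version given) per the submitters' processing notes. They were not normalized again. Of 22277 probe sets 62 were controls, 19064 matched 1 gene, 1043 several and 2108 none in the platform annotation, and only those of 1 gene were used. The filter on low values asked for 3 or more arrays on which a probe set exceeded the lower quartile (25th percentile) of its array. Each of the 10050 genes left was represented by its brightest such probe set on average. Tests used limma 3.58.1 in R 4.3.3 (two-sided moderated test, 1 fit of 10 group means to 30 arrays, 20 residual degrees of freedom, Benjamini-Hochberg adjustment within each of 21 comparisons, calls at an adjusted p under 0.05). The median residual SD was 0.128. No 2 arrays were copies (highest correlation 0.998).

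The genes, lists, markers and comparisons were chosen with earlier results of these data known, and no count or median of a list is independent evidence. Named list genes are up to 4 called genes of a list with the largest change in each comparison of 100 µg/ml with control and in the control time comparison, plus TRAF1 and TNFAIP3 (BIRC3, also planned, was not analysed here). For the control time comparison, only some of the genes so picked are given above. CD70, TNFRSF9, TNFRSF14, LTBR, TNFRSF10B and TNFRSF10C were set beside their members after their values were seen. ADAM17, RHBDF2 and ZFP36 were likewise named beside RHBDF1 and ZFP36L1 after their values were seen. The 5 lists named 10 other ligands (7 tested), 27 other receptors (16), 36 adaptors, ligases and kinases (28), 17 genes of shedding, release and mRNA control (16) and 10 NF-kappaB genes (8). Promoters are RefSeq windows of build GRCh38.p14, matched by symbol for 10 of 10 genes. The fit was tested on simulated data. Alternatives changed the filter, the choice of probe set, the scaling, the arrays fitted, the prior, the replicate block and each array in turn.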

Additional observations from a re-analysis of the deposited data

Results flagged for a closer look

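The response to 100 µg/ml TiO2-NB at 24 h differed from that at 1 h in a test of the difference itself for 3 of the 8 tested genes. TNF differed by 1.49 on the log2 scale (1.48 at 24 h and -0.01 at 1 h, adjusted p = 0.00128 by limma). TNFSF9 differed by 1.55 (1.64 at 24 h and 0.09 at 1 h, adjusted p = 3.01e-06). TNFRSF1A differed by -0.28 (-0.23 at 24 h and 0.05 at 1 h, adjusted p = 0.0279), and this call was lost under 8 of 21 alternatives, among them without replicate 2 of 100 µg/ml TiO2-NB at 1 h (adjusted p = 0.0946). At 1 h all 3 genes overlapped their controls.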

How the results depend on the processing

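Of 2819 recomputed values of the 8 genes, 2751 kept their direction and their side of the threshold, 52 lost a call, 16 gained one and 0 turned round. With only the arrays of the groups compared, the genes called fell to 1 of 3 for 100 µg/ml MWCNT and to 3 of 5 for 100 µg/ml TiO2-NB at 24 h, and 877 of 1309 and 1304 of 2219 genes were called in all. Leaving out 1 array gave 1 to 3 genes for MWCNT (fewest without replicate 1 of the 24 h control, where 778 genes were called in all), 3 to 5 for TiO2-NB (fewest without its replicate 3) and 3 to 5 between the materials at 100 µg/ml and 24 h (fewest without replicate 3 of MWCNT). The single call between materials at 100 µg/ml and 1 h went to 0 with the stricter filter, the arrays of the same time, the arrays compared alone, an intensity trend with a robust prior, and without any 1 array (0 to 0). The single call between MWCNT doses at 24 h went to 0 with no filter, each probe set on its own, cyclic loess, the arrays compared alone, and without any 1 array (0 to 0). For the 24 h response to 100 µg/ml MWCNT set against its 1 h response, the genes called went from 0 to between 0 and 1 without 1 array. The 1 gene was TNF, without replicate 3 of the 24 h control (adjusted p = 0.0488). Calls of TNF and TNFSF9 with 100 µg/ml TiO2-NB, against control and against 10 µg/ml, and of TNFRSF1B between materials were kept under every alternative.

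Equal replicate numbers did not pair the arrays throughout: 36 of 60 such pairs had deviations that correlated above 0.1, 21 were negative, and 20 of 30 arrays correlated best with their own number. A fit with the replicate block moved 0 of 21 counts of members called (5 of 8 with 100 µg/ml TiO2-NB at 24 h). For the 24 h response to 100 µg/ml TiO2-NB set against its 1 h response, centring on the median moved the share of higher genes among those called from 45.9% to 57.7%. Between materials at 100 µg/ml and 1 h, cyclic loess moved this share from 79.7% to 66.7%. Signal limits TNFSF10 at 24 h and TNFSF15, which lie near or below the lower quartile of the array.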
